A study of Mus musculus with 9 samples.

Results

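The genes of cholesterol and fatty acid synthesis were followed through RNA sequencing of mouse spleen plasma cells. They were 31 genes chosen by name, by their role in making the lipids that supply the endoplasmic reticulum membrane, out of 46958 genes in the deposited count table. All 31 were in the table, and all passed the filter on low counts that left 14199 genes for testing. By role they comprised 18 genes of the cholesterol branch, 9 genes of the fatty acid branch, and 4 genes of regulation and sterol transport.

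Plasma cells make and secrete large amounts of antibody, and they carry an extended endoplasmic reticulum whose membrane needs phospholipids and some cholesterol. Cholesterol is built from acetyl-CoA through mevalonate, isoprenoids, squalene and lanosterol. Fatty acids are built from malonyl-CoA, then lengthened and desaturated. Many of these genes are transcribed under the sterol regulatory element binding proteins (SREBPs), which are held in the endoplasmic reticulum membrane by Insig proteins while sterols are plentiful.

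The study compared 3 genotypes with 3 mice each: WT, DH-LMP2A and kFRA, the last marked as a model of light chain deposition disease (LCDD), in which free immunoglobulin light chains deposit in tissue. All mice shared a mixed C57/BL6x129/SVxBALB/c background, were 3 months old and had not been immunized. Each library held the CD138+ cells of a single spleen, isolated on magnetic beads to a stated purity above 80%. The labels do not describe the DH-LMP2A and kFRA alleles further, so what else the mice carry is not known here.

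Total counts ranged from 15449026 to 21558128 per library, so that 3 counts corresponded to 0.127 to 0.205 CPM (the count as a part per 1e6 of the scaled library total). All 8 plasma cell markers were present in every genotype. kFRA replicate 2 stood apart from the other kFRA libraries: Mki67, a proliferation marker, had 433.4 CPM there against 115.3 CPM and 122.4 CPM in kFRA replicates 1 and 3. Counts of genes called are given with and without it. Xist, which is transcribed in female cells, reached 494.7 to 923.6 CPM in kFRA replicate 2, in WT replicates 1 and 3 and in the first and second DH-LMP2A libraries, and was at most 4.48 CPM elsewhere. In whole-fraction RNA, fewer cells of a type and less RNA per cell cannot be told apart.

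Per kilobase of exon, the most abundant of the 31 genes was Scd2, at a mean of 37.6 CPM per kilobase over the 9 libraries. Srebf2, which encodes the SREBP that acts mainly on the cholesterol genes, followed at 30.7, and Ebp, a sterol isomerase, at 23.4. Acly (21.2), whose enzyme supplies cytosolic acetyl-CoA, and Insig1 (20.3), the sterol-dependent anchor of the SREBPs, came next, then Scd1 (16.9), Srebf1 (13.3) and the elongase gene Elovl5 (11.5). The lowest were Elovl6 at 0.496, Hsd17b7 at 0.519 and Idi1 at 0.929. Within genotypes the spread was small for most genes and large for a few, so neighbours in this order often overlapped: Srebf1 was 13.5 ± 0.63 in DH-LMP2A, 13.2 ± 0.71 in kFRA and 13.3 ± 0.823 in WT, while Fads2 was 1.65 ± 1.08, 1.18 ± 0.93 and 2.71 ± 1.58 (SD, n = 3 each).

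**Figure D1:**
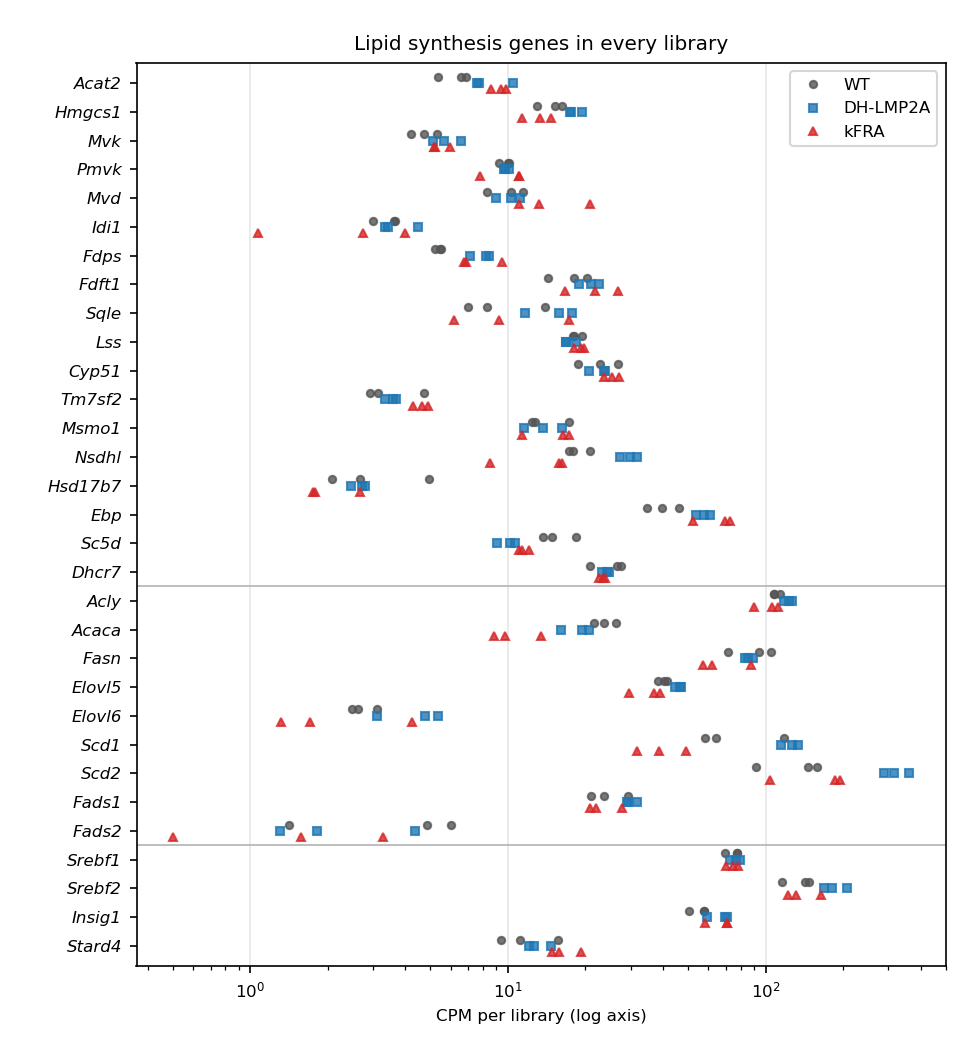
CPM of each of the 31 genes in each of the 9 libraries, on a log axis, with 1 point per library (circles WT, squares DH-LMP2A, triangles kFRA) and lines dividing the cholesterol branch, the fatty acid branch and the regulators. The kFRA points of Scd1 (31.7 to 49.0) lie below all DH-LMP2A and WT points, and the DH-LMP2A points of Scd2 (288.7 to 360.6) lie above all others.

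In kFRA against DH-LMP2A the genes that passed the test were a fatty acid desaturase (Scd1), the first enzyme of fatty acid synthesis (Acaca) and a sterol dehydrogenase (Nsdhl), all lower in kFRA. By edgeR's quasi-likelihood F test with Benjamini-Hochberg adjustment over all genes tested, 3 of the 31 genes fell and 0 rose, 1 being higher at an unadjusted p under 0.05 and 0 by the DESeq2 Wald test. That is 9.68% of the genes, against 5.02% of all 14199 genes tested, and 3.3% of all genes were lower and 1.73% higher. The 9 genes of the fatty acid branch had a median log2 difference of -0.45, and all 9 values were negative, 2 of them past the threshold. The 18 genes of the cholesterol branch had a median of 0.03, and the 4 regulators a median of -0.02, against -0.005 over all genes tested. Of all 14199 genes, 7158 had negative values. A uniform sign was not particular to the fatty acid branch. All 12 cell cycle markers and all 8 markers each of B cells, T cells and erythroid cells were negative too, and 7 of 8 plasma cell markers. Of the myeloid markers 3 of 8 were negative, and of the stromal and endothelial ones 3 of 7.

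Scd1 and Scd2 encode stearoyl-CoA desaturases, which place the first double bond in saturated fatty acids and so set the share of monounsaturated chains available for membrane lipids. Both lie on chromosome 19 in the GRCm38 coordinates of the table, Scd1 from 44394451 to 44407709 on the minus strand and Scd2 from 44293676 to 44306864 on the plus strand.

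Scd1 was at 133.9, 114.9 and 126.3 CPM in DH-LMP2A replicates 1 to 3, at 49.0, 38.5 and 31.7 CPM in kFRA, and at 64.3, 117.7 and 58.2 CPM in WT. The kFRA libraries were the 3 lowest of the 9 and overlapped neither of the other genotypes, while WT replicate 2 lay within the DH-LMP2A range. Scd1 fell in kFRA against DH-LMP2A, by 1.65 in log2 units (SE 0.272, 3.15-fold, edgeR adjusted p = 0.00785), and the call held in all 14 alternative settings run for this comparison. Against WT it fell by 1.01 (SE 0.268, edgeR adjusted p = 0.0311). That call was lost without kFRA replicate 3 (adjusted p = 0.105), and without WT replicate 2, which left a difference of -0.62 (adjusted p = 0.085). It was also lost with library size as the sole scaling (adjusted p = 0.0939) and with only the 6 libraries compared in the fit (adjusted p = 0.0651). Between DH-LMP2A and WT the log2 difference in Scd1 was 0.64 (SE 0.265, edgeR adjusted p = 0.157), with overlapping libraries.

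Scd2 showed another order. It was at 360.6, 288.7 and 314.1 CPM in DH-LMP2A, at 185.9, 195.0 and 104.4 CPM in kFRA, and at 91.8, 159.1 and 146.4 CPM in WT. The 3 DH-LMP2A libraries were above the other 6, while kFRA and WT overlapped. Scd2 rose in DH-LMP2A against WT, by 1.28 in log2 units (SE 0.274, 2.43-fold, edgeR adjusted p = 0.0157), a call lost without DH-LMP2A replicate 1 (adjusted p = 0.0568). The difference of kFRA from DH-LMP2A was -0.99 (SE 0.273, edgeR adjusted p = 0.0759), and that of kFRA from WT was 0.29 (SE 0.271, edgeR adjusted p = 0.462). The 3 comparisons share libraries pairwise, so their values are not independent.

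The ratio of Scd2 to Scd1, each taken per kilobase of exon, was 2.39, 2.23 and 2.21 in DH-LMP2A, 3.36, 4.49 and 2.92 in kFRA, and 1.27, 1.20 and 2.23 in WT. kFRA had the 3 highest ratios, and WT and DH-LMP2A overlapped through WT replicate 3. The mean log2 ratio in kFRA was above DH-LMP2A by 0.64 and above WT by 1.23, each with p = 0.1 by a 2-sided exact permutation test, the smallest p that 3 against 3 libraries allow. The DH-LMP2A mean was above WT by 0.60 (exact permutation test, p = 0.3). Together both desaturase transcripts made up 31% to 34.6% of the summed CPM of the 31 genes in DH-LMP2A, 15.3% to 22.2% in kFRA and 17.4% to 24.3% in WT. The desaturase copies Scd3 and Scd4 were examined after their values were seen. Scd3 had 3.52 to 4.69 CPM in DH-LMP2A, 0.565 to 2.00 CPM in kFRA and 0.760 to 0.918 CPM in WT. Scd3 fell in kFRA against DH-LMP2A by 1.61 on the log2 scale (edgeR adjusted p = 0.0468) and rose in DH-LMP2A against WT by 2.38 (edgeR adjusted p = 0.00542). The first call held in 5 of 14 settings and, of the fits leaving out 1 library, only without kFRA replicate 2 (adjusted p from 0.0519 to 0.148 without kFRA replicate 1 or 3 or any 1 of the DH-LMP2A libraries), while the second held in all 14. Scd4 had 1.28 to 1.67 CPM in DH-LMP2A, 0.753 to 1.5 CPM in kFRA and 0.318 to 0.612 CPM in WT. It was higher than WT in kFRA by 1.37 and in DH-LMP2A by 1.77 (edgeR adjusted p = 0.0379 and 0.0147), and its difference between kFRA and DH-LMP2A was -0.40 (adjusted p = 0.515). Of the 75-base stretches of Scd1 transcripts, 3.15% also occur in another gene, mostly Scd3, so the assignment of some reads between them is uncertain.

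**Figure D2:**
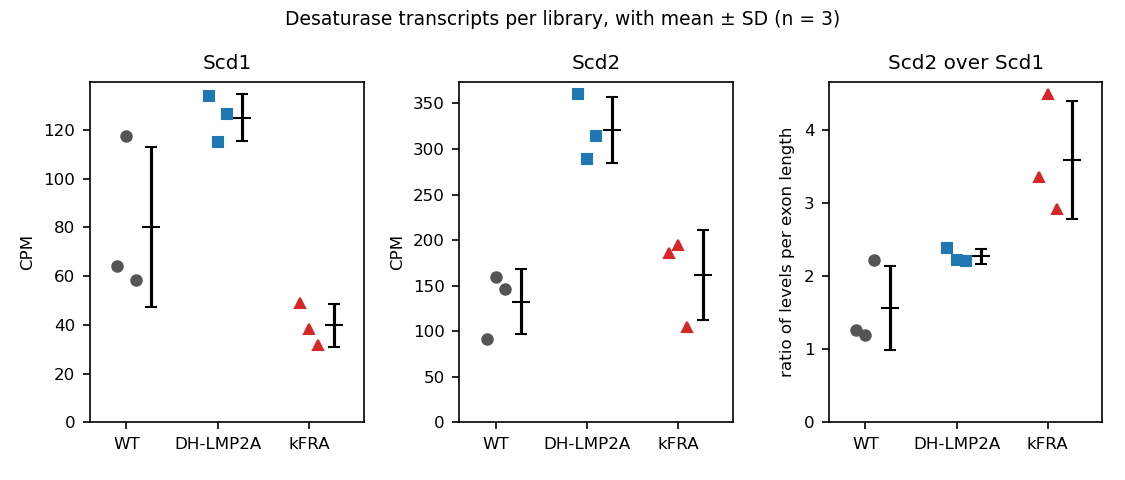
CPM of Scd1 (left) and Scd2 (middle) and the ratio of Scd2 to Scd1 levels per kilobase of exon (right), with 1 point per library and the mean ± SD (n = 3) beside each genotype. Scd1 was lowest in kFRA (39.8 ± 8.72 CPM), Scd2 was highest in DH-LMP2A (321.1 ± 36.4 CPM), and the ratio was highest in kFRA (3.59 ± 0.812).

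Acaca encodes acetyl-CoA carboxylase 1, which makes the malonyl-CoA used in each round of fatty acid elongation, and lies on chromosome 11 (84129672 to 84401651, plus strand). It was at 16.1, 20.6 and 19.4 CPM in DH-LMP2A, at 9.78, 13.4 and 8.84 CPM in kFRA, and at 21.6, 26.3 and 23.6 CPM in WT. The 3 genotypes did not overlap, kFRA being lowest and WT highest. Acaca fell in kFRA against WT by 1.15 in log2 units (SE 0.184, 2.22-fold, edgeR adjusted p = 0.00327), a call that held in all 14 settings. It also fell against DH-LMP2A, by 0.81 (SE 0.183, edgeR adjusted p = 0.0375). That call held in 6 of 14 settings, and of the fits leaving out 1 library only the one without kFRA replicate 2 kept it (adjusted p = 0.00662). In the other 5, without any DH-LMP2A library, kFRA replicate 1 or kFRA replicate 3, the adjusted p ranged from 0.0657 to 0.16. The call against DH-LMP2A was also lost with library size as the sole scaling, with the Xist level in the model and with only the 6 libraries compared. Between DH-LMP2A and WT the log2 difference was -0.35 (SE 0.179, edgeR adjusted p = 0.265). Of the 75-base stretches of Acaca transcripts, 26.8% also occur in another gene, nearly all in the copy Gm5182, so part of its count is uncertain.

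The other fatty acid genes moved less or varied more. Acly ranged from 117.9 to 127.1 CPM in DH-LMP2A, from 90.1 to 111.8 CPM in kFRA and from 107.8 to 114.0 CPM in WT, a log2 difference of -0.26 between kFRA and DH-LMP2A (edgeR adjusted p = 0.235). Fasn, the fatty acid synthase itself, ranged from 83.2 to 89.1 CPM, 57.1 to 88.2 CPM and 71.8 to 104.6 CPM in the same order, with -0.32 (edgeR adjusted p = 0.351). Elovl5, which lengthens polyunsaturated chains, had 44.5 to 47.1 CPM in DH-LMP2A and 29.5 to 39.0 CPM in kFRA, without overlap and with -0.39 (edgeR adjusted p = 0.121). Fads1, a desaturase of polyunsaturated chains, had a log2 difference of -0.35 (edgeR adjusted p = 0.234). Elovl6, which lengthens saturated chains, and Fads2, the other front-end desaturase, were the most variable. Elovl6 was at 5.33, 4.78 and 3.11 CPM in DH-LMP2A, 1.71, 4.23 and 1.32 CPM in kFRA and 2.48, 3.11 and 2.61 CPM in WT. The high kFRA value was that of replicate 2, and without that library Elovl6 passed the threshold as lower in kFRA than in DH-LMP2A. Fads2 reached the lowest count of the 31 genes, 8 counts in kFRA replicate 3 (0.502 CPM, exact Poisson 95% interval 0.217 to 0.989 CPM, counting error only).

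Summed over the 9 genes, the fatty acid branch amounted to 714.7 to 797.8 CPM in DH-LMP2A, 344.4 to 519.1 CPM in kFRA and 431.9 to 578.0 CPM in WT. The DH-LMP2A libraries were above all others, and kFRA and WT overlapped. Scd1 and Scd2 carried this separation: over the other 7 genes the sums were 303.4 to 316.5 CPM in DH-LMP2A, 208.3 to 285.7 CPM in kFRA and 275.8 to 308.9 CPM in WT, so that DH-LMP2A and WT overlapped. The cholesterol branch summed to 259.7 to 298.8 CPM, 256.6 to 286.5 CPM and 217.7 to 262.8 CPM, the ranges of DH-LMP2A and kFRA nearly coinciding.

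In the cholesterol branch 1 of 18 genes passed the threshold in each comparison: Nsdhl, Ebp and Sc5d, which act after lanosterol. Nsdhl encodes a dehydrogenase that helps remove methyl groups from the sterol ring and lies on chromosome X (72918557 to 72958514, plus strand). It was at 29.8, 27.2 and 31.8 CPM in DH-LMP2A, 15.8, 16.2 and 8.53 CPM in kFRA and 17.3, 20.8 and 17.8 CPM in WT. All 3 genotypes were separate, DH-LMP2A highest and kFRA lowest. Nsdhl fell in kFRA against DH-LMP2A by 1.13 in log2 units (SE 0.224, edgeR adjusted p = 0.0213). The call was lost without DH-LMP2A replicate 1, 2 or 3, with adjusted p of 0.0769, 0.0523 and 0.0567. It was also lost with library size as the sole scaling (0.064) and with only the 6 libraries compared (0.0573). The difference of kFRA from WT was -0.46 (edgeR adjusted p = 0.173) and that of DH-LMP2A from WT was 0.67 (edgeR adjusted p = 0.0851).

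Ebp encodes the isomerase that shifts the double bond of the sterol ring, and it too lies on chromosome X (8185329 to 8193512, minus strand). It was at 34.5, 39.7 and 46.2 CPM in WT, 61.0, 53.7 and 57.9 CPM in DH-LMP2A and 72.5, 52.1 and 69.5 CPM in kFRA. The WT libraries were the 3 lowest, and kFRA and DH-LMP2A overlapped. Ebp rose in kFRA against WT by 0.69 in log2 units (SE 0.161, 1.61-fold, edgeR adjusted p = 0.019). The call was lost without kFRA replicate 1 or 3 or WT replicate 1 or 2 (adjusted p from 0.0584 to 0.0768). The DH-LMP2A difference from WT was 0.52 (SE 0.161, edgeR adjusted p = 0.0681).

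Sc5d encodes the desaturase of the step after Ebp and lies on chromosome 9 (42254177 to 42264300, minus strand). It was at 14.9, 18.3 and 13.7 CPM in WT, 10.7, 9.09 and 10.2 CPM in DH-LMP2A and 12.1, 11.0 and 11.4 CPM in kFRA. WT was highest and DH-LMP2A lowest, with no overlap among the 3 genotypes. Sc5d fell in DH-LMP2A against WT by 0.65 in log2 units (SE 0.152, edgeR adjusted p = 0.023). The call was lost without any 1 of the DH-LMP2A libraries or WT replicate 2 (adjusted p from 0.0581 to 0.1), and library size as the sole scaling gave -0.32 (adjusted p = 0.27). The difference of kFRA from WT was -0.45 (edgeR adjusted p = 0.0709).

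As X-linked genes, Nsdhl and Ebp were also read against Xist. When the Xist level (log2 CPM) was added to the model, Nsdhl in kFRA against DH-LMP2A had an adjusted p of 0.037 and Ebp in kFRA against WT one of 0.0342, so both calls held. With the same model the calls of Acaca and Scd3 in kFRA against DH-LMP2A were lost. The calls of Scd1 in kFRA against DH-LMP2A and against WT held, as did that of Acaca against WT. In DH-LMP2A against WT the calls of Scd2 and Sc5d held.

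The sequences just upstream of the RefSeq starts (GRCm38.p6) are shown for the called cholesterol genes and for Hmgcs1, the sole gene among the 24 with a matched promoter whose upstream window held the sterol regulatory element searched. Each line gives 150 bases, 5′ to 3′ on the gene's strand, and capitals mark matches on either strand to TCACNCCAC (sterol regulatory element), CACGTG (E-box), CCAAT (whose reverse complement reads ATTGG) and GGGCGG (GC box, reverse complement CCGCCC).
Hmgcs1 (chr13:119690201-119690350, plus strand): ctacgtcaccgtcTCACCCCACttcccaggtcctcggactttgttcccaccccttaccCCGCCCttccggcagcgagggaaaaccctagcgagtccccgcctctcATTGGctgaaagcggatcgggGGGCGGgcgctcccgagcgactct
Nsdhl (chrX:72918371-72918520, plus strand): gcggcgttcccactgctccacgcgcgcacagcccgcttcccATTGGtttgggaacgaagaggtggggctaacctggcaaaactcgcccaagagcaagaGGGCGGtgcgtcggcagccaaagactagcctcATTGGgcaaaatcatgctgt
Ebp (chrX:8193513-8193662, minus strand): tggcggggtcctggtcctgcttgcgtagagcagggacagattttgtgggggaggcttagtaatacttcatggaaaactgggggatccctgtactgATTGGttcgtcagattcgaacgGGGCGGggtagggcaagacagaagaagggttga
Sc5d (chr9:42264301-42264450, minus strand): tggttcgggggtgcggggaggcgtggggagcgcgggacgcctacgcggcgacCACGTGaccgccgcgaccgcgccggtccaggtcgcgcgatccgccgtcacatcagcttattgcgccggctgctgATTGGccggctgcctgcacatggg

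All 4 windows carry at least 1 CCAAT box in the orientation ATTGG, the E-box is in the Sc5d window alone, and the sterol regulatory element is in that of Hmgcs1 alone. RefSeq promoters were matched for 24 of the 31 genes, and 250 bases before each start were searched. CCAAT was found in 19 of 24, among them 14 of 15 cholesterol genes and 2 of 6 fatty acid genes. It was in 37.5% of 27025 promoters in all and in 40.8% of those of genes with a mean of at least 1 CPM. GGGCGG was found in 19 of 24, again 14 of 15 and 2 of 6, against 35.4% of all promoters and 63.5% of those of genes with a mean of at least 1 CPM. CACGTG was found in 5 of 24 (Hsd17b7, Sc5d, Dhcr7, Elovl5 and Insig1), against 6.86% of all and 9.99% of those of genes with a mean of at least 1 CPM. The sterol regulatory element was found in 1 of 24, against 1.23% and 1.19% in the same order. These matches describe letters in a window, and no binding was measured here.

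The rest of the cholesterol branch differed little between genotypes or varied within them. In the mevalonate steps, Acat2, which joins acetyl-CoA units, had 5.37 to 6.88 CPM in WT, 7.62 to 10.5 CPM in DH-LMP2A and 8.56 to 9.85 CPM in kFRA. Its log2 difference from WT was 0.56 in kFRA (edgeR adjusted p = 0.0661) and 0.46 in DH-LMP2A (edgeR adjusted p = 0.151), and 33.9% of its 75-base stretches occur in Acat3. Fdps, which makes farnesyl diphosphate, had 5.22 to 5.48 CPM in WT, below the 6.76 to 9.44 CPM of kFRA and the 7.10 to 8.42 CPM of DH-LMP2A. Its differences from WT were 0.51 and 0.55 (edgeR adjusted p = 0.0816 and 0.0822), and 26.7% of its exon bases overlap Gm43738 on the same strand. Hmgcs1, which makes HMG-CoA, had 17.3 to 19.4 CPM in DH-LMP2A and 11.3 to 14.7 CPM in kFRA, without overlap, and a log2 difference of -0.46 (edgeR adjusted p = 0.12).

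The kinases Mvk and Pmvk and the decarboxylase Mvd, all of the mevalonate steps, did not pass the threshold in any comparison. Mvd was at 13.2, 11.0 and 20.8 CPM in kFRA and at 8.97 to 11.2 CPM in DH-LMP2A, a difference of 0.56 (edgeR adjusted p = 0.211). Idi1, the isoprenoid isomerase, was at 2.74, 4.00 and 1.07 CPM in kFRA and at 3.34 to 4.48 CPM in DH-LMP2A. Sqle, the squalene epoxidase, was at 9.23, 17.3 and 6.15 CPM in kFRA, at 11.6 to 17.7 CPM in DH-LMP2A and at 6.99 to 14.0 CPM in WT. For both, kFRA replicate 2 was the highest kFRA library.

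The sterol ring genes Lss, Cyp51 and Dhcr7 had the tightest values. Lss, the synthase that closes the ring, lay between 16.8 and 19.6 CPM in all 9 libraries. Dhcr7, a reductase that ends the pathway, lay between 20.8 and 27.4 CPM, and Cyp51, the lanosterol demethylase, between 18.7 and 27.1 CPM. The largest log2 difference among these 3 genes was 0.16, for Cyp51. Fdft1, the squalene synthase, had 14.3 to 26.7 CPM over the libraries, with 26.8% of its exon bases overlapping Ctsb on the opposite strand. Tm7sf2, a sterol reductase, was higher in every kFRA library (4.27 to 4.90 CPM) than in DH-LMP2A (3.34 to 3.68 CPM), with 0.38 (edgeR adjusted p = 0.34). Msmo1, a sterol methyl oxidase, ranged from 11.3 to 17.3 CPM, and Hsd17b7, the ketoreductase of the same complex, from 1.76 to 4.95 CPM.

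Among the regulators, 0 of 4 genes passed the threshold in any comparison by edgeR. At an unadjusted p under 0.05, 1 was lower in kFRA than in DH-LMP2A and 1 higher in DH-LMP2A than in WT, and by the DESeq2 Wald test 1 was higher in DH-LMP2A than in WT. Srebf1, which encodes the SREBP with the larger part in fatty acid genes, stayed between 69.4 and 79.5 CPM in all libraries, and its largest log2 difference was -0.04 (SE 0.109). Srebf2 was at 181.9, 168.9 and 206.8 CPM in DH-LMP2A, 130.8, 164.8 and 121.9 CPM in kFRA and 115.5, 147.2 and 141.9 CPM in WT. DH-LMP2A was above the other genotypes in every library, with 0.46 against WT (SE 0.162, edgeR adjusted p = 0.1) and -0.42 for kFRA against DH-LMP2A (SE 0.162, edgeR adjusted p = 0.176). Insig1 had 50.4 to 57.5 CPM in WT, below the 58.2 to 71.0 CPM of kFRA and the 59.1 to 71.0 CPM of DH-LMP2A, with 0.28 and 0.27 (edgeR adjusted p = 0.169 and 0.23). Stard4, a carrier of cholesterol between membranes, had 14.9 to 19.2 CPM in kFRA and 12.0 to 14.7 CPM in DH-LMP2A, with 0.34 (edgeR adjusted p = 0.341).

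**Figure D3:**
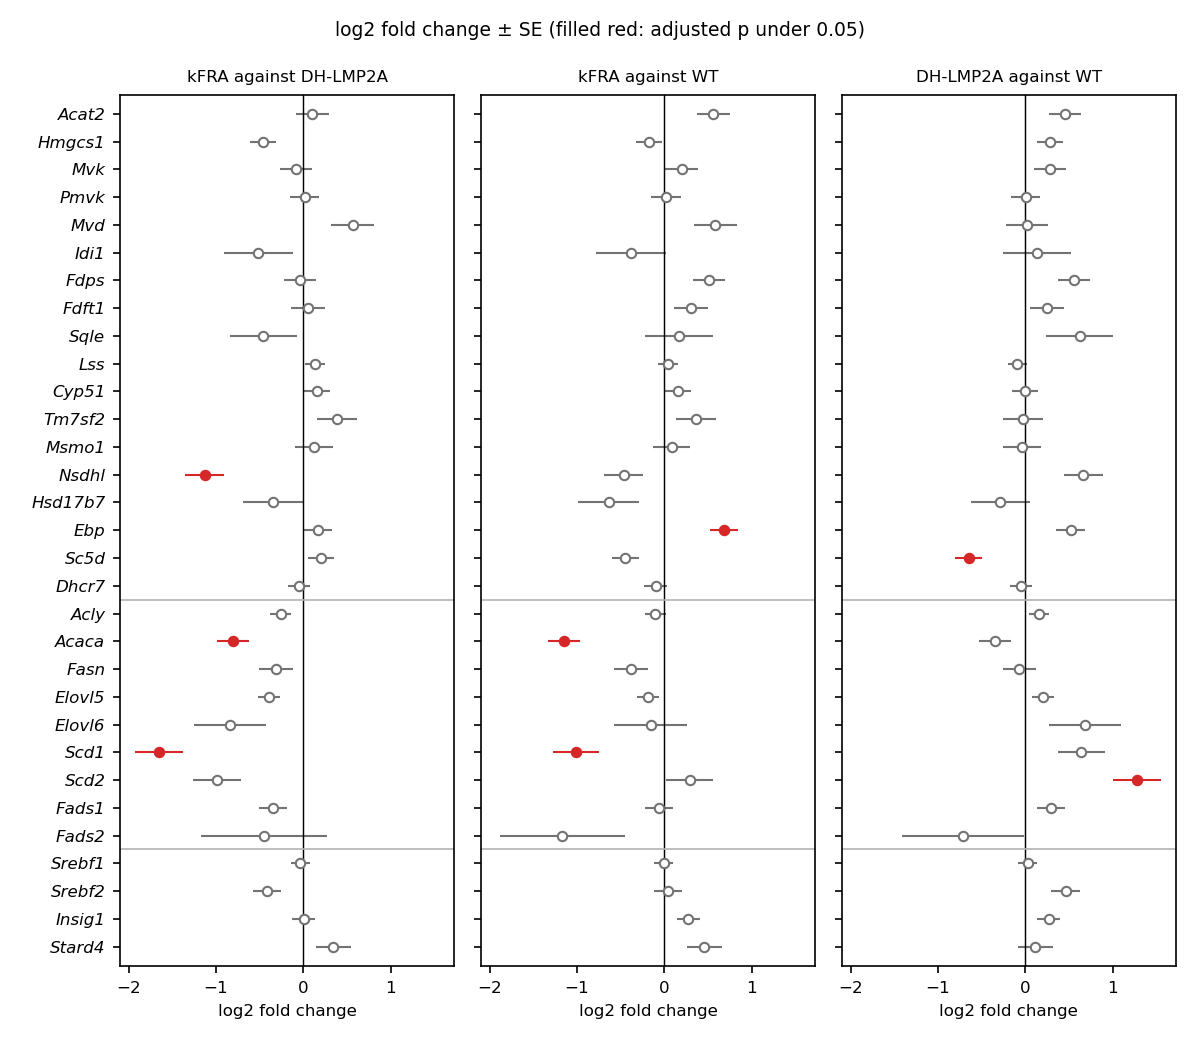
Log2 fold change ± SE of each of the 31 genes in the 3 comparisons, with filled red points for an adjusted p under 0.05 by edgeR and lines dividing the roles. In kFRA against DH-LMP2A all 9 fatty acid genes lie left of 0, and Scd1 lies farthest at -1.65.

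In kFRA against WT, 3 of 31 genes passed the threshold, or 9.68%, against 17.8% of all genes tested (6.68% higher and 11.1% lower): Ebp rose, and Acaca and Scd1 fell. The median over the 31 genes was 0.02, against -0.04 over all genes. The fatty acid branch had a median of -0.19 and the cholesterol branch one of 0.12. In DH-LMP2A against WT, 2 of 31 passed, or 6.45%, against 12.4% of all genes tested (5.07% higher and 7.3% lower): Scd2 rose and Sc5d fell. The median over the 31 genes was 0.16, against -0.008 over all genes, with 0.20 in the fatty acid branch and 0.08 in the cholesterol branch. Libraries of the genotypes did not overlap for 12 of the 31 genes in kFRA against DH-LMP2A (3 higher and 9 lower), against 25.6% of all genes (11.6% and 13.9%). They did not overlap for 8 genes in kFRA against WT (4 higher and 4 lower), against 34.3% (14.2% and 20.2%), and for 13 in DH-LMP2A against WT (11 higher and 2 lower), against 36.6% (17.5% and 19.1%). In both comparisons with WT the share of the 31 genes called by edgeR was below that of all genes, a difference that was not tested. By the DESeq2 Wald test it was 16.1% against 24.8% in kFRA against WT and 19.4% against 17.8% in DH-LMP2A against WT.

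The number of calls depended on kFRA replicate 2. It was also the sole kFRA library with high Xist (733.6 CPM, against 1.30 and 3.14 CPM in kFRA replicates 1 and 3). WT and DH-LMP2A keep libraries with high Xist when it is left out, so its own part and that of sex cannot be told apart. Without kFRA replicate 2, 7 of the 31 genes passed in kFRA against DH-LMP2A, where 22.7% of all genes did: Hmgcs1, Nsdhl, Acaca, Elovl6, Scd1 and Scd2 fell and Mvd rose. In kFRA against WT, 8 passed, where 38.8% of all genes did: Acat2, Mvd, Fdps, Fdft1 and Ebp rose, and Acaca, Fasn and Scd1 fell. The fatty acid branch median in kFRA against DH-LMP2A went from -0.45 to -0.94. Within kFRA, log2(CPM + 0.5) in replicate 2 was set against its mean over replicates 1 and 3. By that measure Fads2 was 2.62-fold, Elovl6 2.36-fold and Sqle 2.22-fold higher in replicate 2. There 7.91% of all genes tested differed at least 2-fold. Every other library, set against the rest of its own genotype, had 1.63% to 6.80%, the highest being DH-LMP2A replicate 3.

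**Figure D4:**
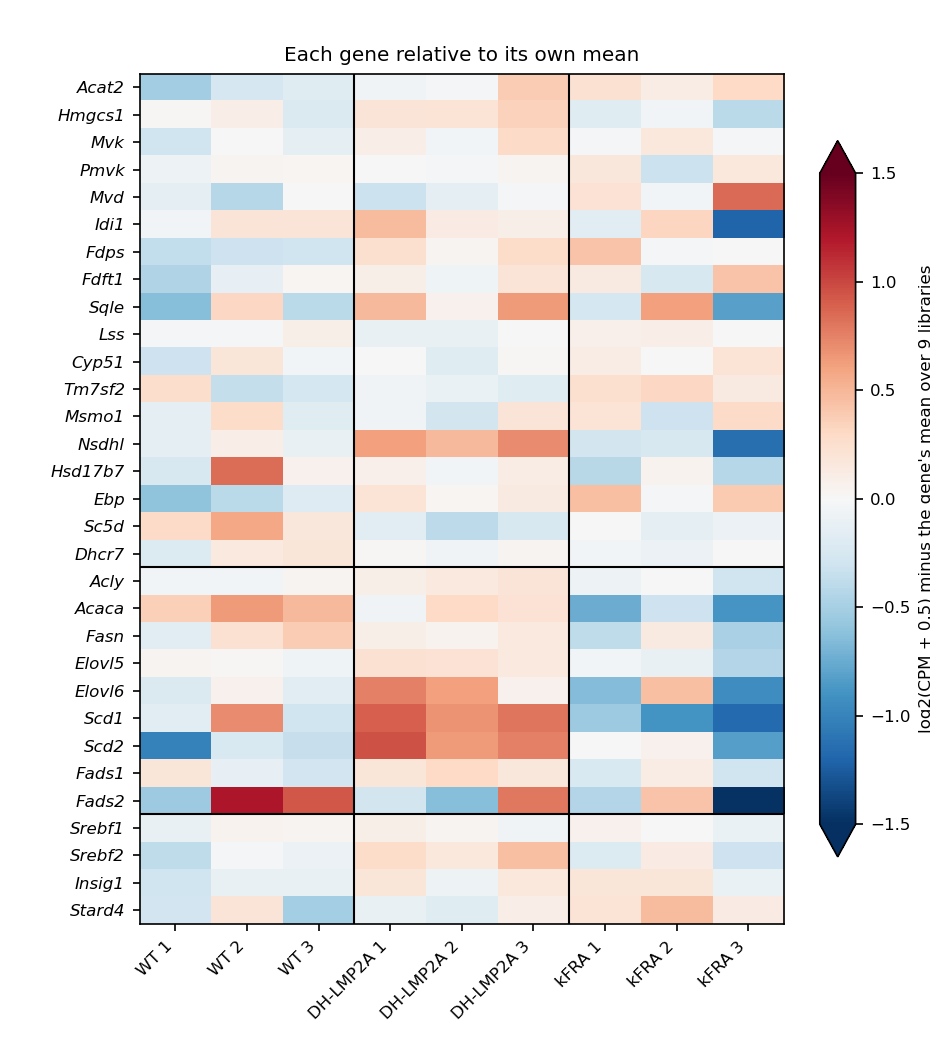
Each gene's log2(CPM + 0.5) minus its own mean over the 9 libraries, with 1 column per library and lines dividing genotypes and roles. The DH-LMP2A columns are high in Scd1, Scd2 and Nsdhl, and kFRA replicate 2 departs from the other kFRA columns in Elovl6, Sqle and Fads2.

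Other genes of the sterol pathway and its control, 31 in all and all tested, gave 0 higher and 1 lower in kFRA against DH-LMP2A (at an unadjusted p under 0.05, 4 higher and 5 lower, and by the DESeq2 Wald test 3 and 4). In kFRA against WT 0 were higher and 4 lower (1 and 9 unadjusted, 1 and 4 by the Wald test), and in DH-LMP2A against WT 3 were higher and 4 lower. The shares called were 3.23%, 12.9% and 22.6% in the order of these comparisons, against 5.02%, 17.8% and 12.4% of all genes. Without kFRA replicate 2 the counts were 4 higher and 6 lower in kFRA against DH-LMP2A, and 1 higher and 8 lower in kFRA against WT. In those fits 22.7% and 38.8% of all genes were called.

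Among these other sterol genes, Mylip, a ubiquitin ligase induced by sterols, fell against WT in kFRA by 0.81 and in DH-LMP2A by 0.70 (edgeR adjusted p = 0.00767 and 0.0171). Abcg1, a sterol exporter, fell by 1.04 and by 1.27 (edgeR adjusted p = 0.0353 and 0.02), and Soat2, which esterifies cholesterol, by 0.73 and by 1.37 (edgeR adjusted p = 0.0288 and 0.0021). In kFRA against WT the Abcg1 call held in 8 of 14 settings and, of the fits leaving out 1 library, only without kFRA replicate 2 (adjusted p from 0.051 to 0.107 in the other 5, without kFRA replicate 1 or 3 or any 1 of the WT libraries). The Soat2 call there was lost without kFRA replicate 1 or WT replicate 1 or 2 (adjusted p from 0.0668 to 0.12). In DH-LMP2A against WT, Abcg1 was lost without WT replicate 1 or 2 (0.063 and 0.0555), and Mylip without DH-LMP2A replicate 1 or 3 or WT replicate 2 (0.056 to 0.0604), while Soat2 held in all 14 settings. With library size as the sole scaling Mylip and Abcg1 were lost in both comparisons and Soat2 in kFRA against WT.

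Of 32 other fatty acid genes, 22 were tested. In kFRA against DH-LMP2A 0 passed in either direction by edgeR (2 higher and 1 lower at an unadjusted p under 0.05, 0 by the DESeq2 Wald test). There 5.02% of all genes were called. Against WT, 1 was higher and 4 lower in kFRA (22.7% called, against 17.8% of all genes). In DH-LMP2A against WT 2 were higher and 1 lower (13.6%, against 12.4%). Tecr, the last enzyme of the elongation cycle, rose in both, by 0.74 and 0.77 (edgeR adjusted p = 0.0124 and 0.0123), calls lost without WT replicate 2 (0.0547 and 0.0551) and, in DH-LMP2A, without DH-LMP2A replicate 1 (0.0636). Acacb, the carboxylase that restrains fatty acid oxidation, fell in both, at 0.32 to 0.941 CPM against 1.72 to 3.76 CPM in WT. In kFRA its call was lost without kFRA replicate 1 or WT replicate 2 or 3 (adjusted p from 0.0546 to 0.06). Without kFRA replicate 2 this list gave 0 calls in kFRA against DH-LMP2A by edgeR and 3 higher and 6 lower in kFRA against WT. In those fits 22.7% and 38.8% of all genes were called. Of 32 genes of phospholipid synthesis, 31 were tested, and 0 passed in kFRA against DH-LMP2A by edgeR (2 higher and 1 lower unadjusted, 1 higher by the Wald test). Against WT, 4 were higher and 4 lower in kFRA (25.8% called, against 17.8% of all genes). In DH-LMP2A against WT 2 were higher and 3 lower (16.1%, against 12.4%). The absence of calls in kFRA against DH-LMP2A rested on kFRA replicate 2. Without it 5 were higher and 0 lower there, where 22.7% of all genes were called. In kFRA against WT 7 were then higher and 5 lower, where 38.8% of all genes were called. Pcyt2, of the phosphatidylethanolamine route, rose against WT by 0.81 in kFRA and 0.56 in DH-LMP2A (edgeR adjusted p = 0.00327 and 0.0209). Lpcat4, which reacylates lysophospholipids, fell by 1.81 and by 1.45 in the same order (edgeR adjusted p = 0.00327 and 0.0097). Both kFRA calls held in all 14 settings. In DH-LMP2A against WT, Lpcat4 was lost without DH-LMP2A replicate 1 (0.0544), and Pcyt2 held in 9 of 14 settings and, of the fits leaving out 1 library, only without WT replicate 1 (0.0536 to 0.0643 without WT replicate 2 or 3 or any 1 of the DH-LMP2A libraries).

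Marker genes of plasma cells and of other cells moved with these groups, and their part in the results was not tested. The 8 plasma cell markers summed to 34147 to 47160 CPM in DH-LMP2A, 20401 to 32064 CPM in kFRA and 18890 to 24141 CPM in WT, highest in DH-LMP2A as were Scd2 and Nsdhl. Most of each sum was Jchain (27010 to 38647 CPM in DH-LMP2A, 14680 to 25428 CPM in kFRA and 15678 to 19912 CPM in WT). Jchain, Sdc1, Xbp1 and Irf4 were not called in any comparison. In DH-LMP2A against WT, 3 of 8 were higher (Mzb1, Prdm1 and Slamf7) and 1 lower (Tnfrsf17), where 12.4% of all genes were called. In kFRA against WT, 2 were higher (Mzb1 and Slamf7) and 1 lower (Tnfrsf17), where 17.8% of all genes were called. Without kFRA replicate 2, 3 were higher and 1 lower there, where 38.8% of all genes were called. In kFRA against DH-LMP2A 0 passed by edgeR with or without that library (2 lower at an unadjusted p under 0.05 with it).

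Over 8 B cell markers the summed level was 731.6 to 1104 CPM in DH-LMP2A, 540.5 to 634.7 CPM in kFRA and 630.8 to 916.1 CPM in WT. In kFRA against DH-LMP2A 2 of 8 were lower, Ms4a1 at -1.40 and Cr2 at -2.45 (edgeR adjusted p = 0.0169 and 0.00126), where 3.3% of all genes were lower. In kFRA against WT 4 of 8 were lower and 0 higher, where 11.1% of all genes were lower. These were Pax5, Cr2, Fcer2a and Cd22, with log2 differences of -3.01, -1.32, -3.32 and -3.60. Without kFRA replicate 2, 2 were lower in kFRA against DH-LMP2A and 5 in kFRA against WT. In those fits 22.7% and 38.8% of all genes were called. In DH-LMP2A against WT the list was divided, with Ms4a1 and Cr2 higher and Cd22 lower. The 12 cell cycle markers summed to 620.3 to 894.5 CPM in DH-LMP2A, 297.0 to 779.4 CPM in kFRA and 498.1 to 626.0 CPM in WT. In kFRA against DH-LMP2A 0 of 12 passed by edgeR (3 lower unadjusted, 1 lower by the DESeq2 Wald test), a count that rested on kFRA replicate 2, since 8 of 12 were lower without it.

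The 8 myeloid markers summed to 754.1 to 2189 CPM in DH-LMP2A, 1555 to 2247 CPM in kFRA and 2731 to 4642 CPM in WT, with WT highest as for Abcg1, Mylip, Soat2, Sc5d and Acaca. Of the 8, 3 were lower in kFRA than in WT, where 11.1% of all genes were, and 1 was lower in DH-LMP2A than in WT, where 7.3% were (7 at an unadjusted p under 0.05). Without kFRA replicate 2, 4 were lower in kFRA than in WT, where 38.8% of all genes were called. With WT lowest as for Ebp, the 8 erythroid markers summed to 39.3 to 341.4 CPM in WT, 1167 to 2807 CPM in kFRA and 2566 to 13641 CPM in DH-LMP2A, and 5 of 8 were higher in each than in WT, where 6.68% and 5.07% of all genes were. T cell markers summed to 37.6 to 122.0 CPM and stromal and endothelial markers to 54.2 to 141.4 CPM over all libraries. Both sums were highest in WT replicate 1, where Cd4 (83.4 CPM) and Pecam1 (110.5 CPM) made up most of them. Single T cell markers peaked elsewhere: Cd3e, Cd3g, Cd3d, Cd8a, Trac and Lck were highest in DH-LMP2A replicate 3, and Cd2 in WT replicate 3. The 8 adipocyte markers summed to 1.69 to 3.53 CPM in DH-LMP2A, 3.35 to 6.95 CPM in kFRA and 9.28 to 16.1 CPM in WT, with Lep at 0 in all 9 libraries. Of the 2 that passed the filter, Fabp4 was lower in DH-LMP2A than in WT, and Car3 was higher, at 0.55 to 1.33 CPM against 0 to 0.101 CPM.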

How the data were processed

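The authors deposited raw read counts per gene, with exon coordinates and lengths, in 1 table of 46958 genes and 9 libraries, per the file headers. The kit was strand-specific and selected poly(A) RNA, with paired-end reads, per the labels' protocols. STAR 2.4.0a, featureCounts, Subread 1.5.0-p3, DESeq2 and the builds mm10 and GRCm38 are named in the submitters' processing notes. The strand setting and the treatment of multi-mapping reads are not given in the sources used here, so reads of overlapping or near-identical genes are uncertain: 8 of the 31 genes overlap exons of another gene in the table, and 5 share over 10% of their 75-base stretches. All 31 gene spans overlap the same gene in GENCODE M21 (GRCm38).

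Counts were tested with edgeR 4.0.16 (R 4.3.3): filterByExpr by genotype, TMM scaling, a quasi-likelihood fit of all 9 libraries, 2-sided F tests and Benjamini-Hochberg adjustment over 14199 genes at 0.05. The SE is the log2 fold change over the square root of F. CPM is TMM-scaled. The fit was tested on simulated data. Alternatives were DESeq2 1.42.0 size factors and Wald test, scaling by library size, testing without a low-count filter, leaving out immunoglobulin genes, a replicate block, Xist as a covariate, only the 6 libraries compared, and leaving out each library. The members and all lists (other pathway genes and markers of plasma, B, T, myeloid, erythroid, stromal and endothelial, cycling and fat cells) were chosen with earlier results of these data known. Every member is named, and those called in any comparison are given by library. Other pathway genes were named after their values were seen. Some genes of these lists are not reported here. Replicates were separate mice, and no pair agreed within sampling noise (chi-square per degree of freedom 18.3 to 174). Same-numbered libraries did not deviate together, so numbers were not used as pairs. Promoters came from RefSeq (GRCm38.p6), with Scd1, Scd2, Fdps, Sqle, Stard4, Fdft1 and Fads1 unmatched. Acaca's sequence is not shown because its RefSeq start lies inside the gene span of the table.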

Additional observations from a re-analysis of the deposited data

How the results depend on the processing

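No call reversed among the genes called in the report. Scaling by library size alone moved the median of all genes by -0.136 (kFRA against DH-LMP2A), 0.174 (kFRA against WT) and 0.334 (DH-LMP2A against WT), and the called genes of the set numbered 1, 6 and 7 in that order (3.23%, 19.4% and 22.6%, against 3.44%, 23.1% and 18.1% of all genes). With it the share of higher genes among all calls went from 37.6% to 72.0% in kFRA against WT and from 41.0% to 79.9% in DH-LMP2A against WT. The DESeq2 Wald test called 4, 5 and 6 of the 31 genes, and 1405, 3515 and 2528 of all genes (9.9%, 24.8% and 17.8%). A fit of only the 6 libraries compared called 1, 2 and 5, against 3.76%, 13.9% and 14.8% of all genes. Leaving out 1 library gave 1 to 7, 1 to 8 and 0 to 2 of the 31 genes, and 352 to 3299, 1271 to 5632 and 932 to 1408 of all genes, in kFRA against DH-LMP2A, kFRA against WT and DH-LMP2A against WT. The highest counts of both kFRA comparisons came without kFRA replicate 2, and the 0 by edgeR without DH-LMP2A replicate 1, where 7 had an unadjusted p under 0.05 and 2 passed the DESeq2 Wald test. The causes were not tested. The replicate block gave 3, 3 and 2 of the 31 genes and 685, 2930 and 2067 of all genes. The numbers only name mice: same-numbered libraries of different genotypes correlated between -0.249 and 0.240, and 3 of 9 libraries correlated best with their own number. Over the 14 settings the sign of 10, 11 and 12 of the 31 genes flipped at least once in that order, none of them larger than 0.45 on the log2 scale. With 3 mice per genotype, small differences such as that of Srebf2 did not pass the adjusted threshold in the main edgeR fit. In DH-LMP2A against WT the Srebf2 libraries did not overlap, and its unadjusted edgeR p was 0.0183. It was called there by the DESeq2 Wald test and with library size as the sole scaling. By the lowest count in any 1 library, counting error was widest for Fads2, Idi1 and Elovl6 (8, 17 and 21 counts). Over all 9 libraries together Hsd17b7 had the fewest counts (468).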
